A study of Mus musculus with 2 samples.

Results

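The Ikaros family is a small group of zinc finger transcription factors encoded in the mouse by Ikzf1 (Ikaros), Ikzf2 (Helios), Ikzf3 (Aiolos), Ikzf4 (Eos) and Ikzf5 (Pegasus). Their mRNAs were followed in migratory dendritic cells (DCs) from lymph nodes that drain the skin. These 5 genes of the 18049 listed in the expression data were chosen by name, as the members of 1 gene family, and the family was chosen because Ikzf4 was among the genes with the highest papain over naive ratio in CD301bhi type 2 conventional DCs (cDC2s). That ratio is therefore given below as a description and supports nothing.

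The proteins share N-terminal zinc fingers that bind DNA and C-terminal zinc fingers through which members pair with themselves and with each other. They are best known in lymphocytes, where Ikaros is needed for lymphoid development, Aiolos for B cell maturation, and Helios and Eos mark or support regulatory T cells, in which Eos acts with Foxp3 as a repressor. Ikaros proteins recruit the NuRD chromatin remodelling complex and other corepressors and are phosphorylated by casein kinase 2. In human cells Ikaros and Aiolos are degraded through the cereblon ubiquitin ligase when thalidomide-like drugs are present. In the DC lineage Ikaros is known for its role in the development of plasmacytoid DCs.

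Live MHCIIhi CD11c+ B220- cells of B6 mice were profiled by CITEseq, in which antibodies carrying DNA barcodes and mRNA are read from the same cell. There was 1 library from naive mice and 1 library from mice immunized in both rear footpads with ovalbumin (OVA) plus papain, a protease allergen, and examined 1 day later (hereafter papain). Both libraries came from several nodes pooled before sorting. According to the study's methods the papain cells were from popliteal nodes and the naive cells from pooled skin-draining nodes, whereas the labels name popliteal nodes for both, so immunization and lymph node site cannot be told apart. With 1 library per condition no value has a replicate and no test between conditions was made. The 95% intervals are exact Poisson intervals for levels, exact conditional binomial intervals for log2 ratios and, for the share of a class with a UMI, Clopper-Pearson intervals. They cover counting error only and leave out variation between mice and libraries. Those for levels and log2 ratios take each UMI as independent, so they also leave out variation between cells. In naive CD301bhi cDC2s, for instance, the 10 cells with the most Ikzf4 UMIs held 27.6% of them.

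The authors classed the cells by 12 antibodies into CD301bhi, CD301bint and CD301blo cDC2s (the first and last labelled CD301b+ and CD301b- in the deposited data), type 1 conventional DCs (cDC1s) and Langerhans cells (LCs). The naive library held 707 CD301bhi, 659 CD301bint and 658 CD301blo cDC2s, 578 cDC1s and 440 LCs, and the papain library 2893, 1827, 1470, 235 and 881. A further 429 naive and 290 papain cells had no class. Unique molecular identifiers (UMIs, 1 per captured mRNA molecule) were recovered from the deposited values, summed over the cells of a class and scaled to the UMIs of those cells (CPM, per 1000000 UMIs). Median depth was 13764 UMIs per naive and 14738 per papain cell, and 2 cell barcodes occurred in both libraries. The LC markers Epcam and Cd207 summed to 148 CPM in naive and 215 CPM in papain LCs, against 4.32 to 38.3 CPM in the other classes. Irf8 was highest in cDC1s (565.8 and 830 CPM), in which Xcr1 (16.9 and 9.44 CPM) and Clec9a (5.48 and 10.1 CPM) were low but above the other classes of the same library. Irf8 was not confined to cDC1s, at 157 to 270 CPM in the cDC2 classes. In LCs the highest of the listed cDC1 markers was at 373 CPM in naive and 530 CPM in papain cells. The remaining listed cDC1 marker, Itgae, was the lowest of that list in papain cDC1s, at 0.651 CPM. Sirpa was highest in cDC2s, and Mgl2, which encodes CD301b, was at 15.2 to 59.1 CPM in the naive but 0.544 to 1.17 CPM in the papain cDC2 classes. The listed cDC2 markers Sirpa, Itgam, Mgl2 and Irf4 summed to 128 to 225 CPM in the cDC2 classes. Their sums in cDC1s and LCs were 35.8 to 83.8 CPM. In the papain cDC2 classes the lowest of these markers was at 0.476 to 1.05 CPM. T cell transcripts did not fall evenly over the classes. The 6 listed T cell markers summed to 202 CPM in naive cDC1s, 11.5 to 58.3 CPM in the other naive classes and 10.2 to 27.7 CPM in the papain classes. A cell with at least 1 Cd3e or Trac UMI is called a cell with a T cell transcript below, and such cells made up 13.5% of naive cDC1s.

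In the mouse genome (GRCm38.p6, RefSeq) Ikzf1 lies at chr11:11684962-11772930 and Ikzf3 on the same chromosome at chr11:98464610-98546031. Ikzf2 spans chr1:69531207-69687351, Ikzf4 chr10:128630839-128669671 and Ikzf5 chr7:131388649-131410518. These are whole gene spans, introns included. The libraries read the 3′ ends of mRNAs, so splice forms of Ikaros, including those without DNA-binding fingers, were not separated, and levels of different genes are not compared per length.

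Ikzf4 was higher in the papain library in 4 of the 5 classes. In CD301bhi cDC2s its level was 16.8 CPM (14.5 to 19.4) without and 62.9 CPM (60.7 to 65.1) with papain, from 192 and 3179 UMIs, a log2 ratio of 1.90 (1.69 to 2.12). This ratio took rank 15 of the 7226 genes that reached 10 CPM in either library, between Il18bp at 1.93 and P3h1 at 1.90, and rank 2 of the 2756 genes that reached 50 CPM, between Isg15 at 2.22 and Gm4070 at 1.89. The same contrast chose the family, so these ranks are no evidence about it.

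The difference was not particular to CD301bhi cells. Ikzf4 was 25.2 CPM (22.2 to 28.4) in naive and 60.1 CPM (57.4 to 63.0) in papain CD301bint cDC2s, a log2 ratio of 1.26 (1.07 to 1.45). It was 21.2 CPM (18.4 to 24.4) and 56.2 CPM (52.8 to 59.7) in CD301blo cDC2s, a log2 ratio of 1.40 (1.18 to 1.63). LCs, which come from the epidermis rather than the dermis, had 17.5 CPM (14.1 to 21.4) and 52.3 CPM (49.1 to 55.7), a log2 ratio of 1.58 (1.27 to 1.90). In these 4 classes every papain level lay above every naive level, and the intervals of no naive and papain class overlapped.

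The cDC1s stood apart from this. Their Ikzf4 level was 25.8 CPM (22.7 to 29.2) without and 25.4 CPM (20.1 to 31.7) with papain, a log2 ratio of -0.02 with an interval of -0.41 to 0.35, which lies below that of each other class. Among naive cells cDC1s had the highest level, with an interval that overlapped those of CD301bint and CD301blo cDC2s. In the papain library cDC1s were lowest and their interval was clear of all other classes. The log2 ratio of cDC1s over all cDC2s was 0.30 (0.09 to 0.52) in naive and -1.26 (-1.60 to -0.94) in papain cells. All cDC2s here include the CD301bhi cells whose papain over naive ratio chose the family. The papain cDC1 value rests on 78 UMIs in 235 cells. Among papain cells the order was CD301bhi, CD301bint and CD301blo cDC2s, LCs and cDC1s. The intervals of neighbours overlapped at each step down to LCs, while that of CD301bhi cDC2s did not overlap that of CD301blo cDC2s.

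**Figure D1:**
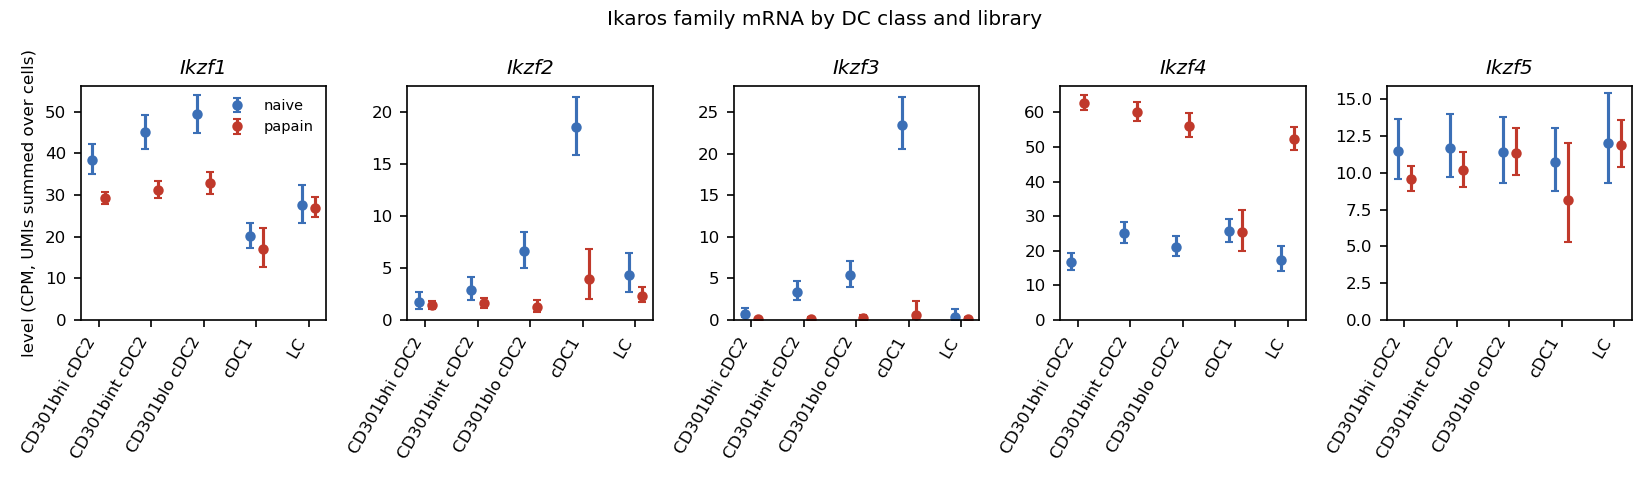
Levels of the 5 Ikaros family mRNAs in CPM (y axes, each from 0 and on its own scale) in the 5 DC classes (x axes) of the naive (blue) and papain (red) library; points are UMIs summed over the cells of 1 library, bars exact 95% Poisson intervals of counting error. Ikzf4 is higher in papain cells in every class but cDC1s (25.8 and 25.4 CPM), Ikzf2 and Ikzf3 peak in naive cDC1s, and Ikzf5 stays between 8.14 and 12.04 CPM.

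Shares of cells describe the same UMIs in another way. For CD301bhi cDC2s they come from the contrast that chose the family, so they are no separate evidence. Of the naive CD301bhi cDC2s 15.3% (12.7 to 18.1) had at least 1 Ikzf4 UMI, and of the papain CD301bhi cDC2s 45.7% (43.9 to 47.5). The median cell held 15167 UMIs in the former and 16181 in the latter. After each cell was thinned to 8392 UMIs, which left out 55 and 137 shallower cells, the shares were 10.5% and 32.4%. Cells with 3 or more Ikzf4 UMIs made up 2.26% of naive and 16.1% of papain CD301bhi cDC2s, so cells with several molecules were also more frequent. For cDC1s the shares were 22.7% (19.3 to 26.3) and 17.4% (12.8 to 22.9), or 15.3% and 14.1% after thinning. As a measure of background, 4.22% of the naive and 5.81% of the papain cells with a T cell transcript and no class had an Ikzf4 UMI. The median depth of these cells was 7626 and 6980 UMIs. Thinning kept only the deeper 86 of 237 naive and 63 of 241 papain cells, with shares of 3.38% and 9.00%. Regulatory T cells can express Eos, so these cells are not certain to lack the gene.

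Ikzf1 was also common in DCs and differed in the other direction. In CD301bhi cDC2s it was 38.4 CPM (34.9 to 42.2) in naive and 29.2 CPM (27.8 to 30.8) in papain cells, a log2 ratio of -0.40 (-0.55 to -0.24). It was 44.99 and 31.3 CPM in CD301bint cDC2s (log2 ratio -0.53, -0.69 to -0.36) and 49.3 and 32.8 CPM in CD301blo cDC2s (-0.59, -0.77 to -0.41). The 3 cDC2 classes were thus lower in the papain library beyond counting error, by at most about the 1.5-fold threshold. Cells with a Cd79a, Cd79b or Ms4a1 UMI made up 12.3% of naive and 9.12% of papain CD301blo cDC2s and held 87 of the 455 and 63 of the 592 Ikzf1 UMIs. Without them the levels were 46.5 and 32.1 CPM, a log2 ratio of -0.54. No such difference was detectable in LCs, at 27.7 and 26.9 CPM (-0.04, -0.31 to 0.24), or in cDC1s, at 20.1 and 16.9 CPM (-0.25, -0.72 to 0.20).

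Ikzf1 separated the classes in the same way in both libraries, with cDC2s highest and cDC1s lowest. The log2 ratio of cDC1s over cDC2s was -1.12 (-1.35 to -0.91) in naive and -0.85 (-1.27 to -0.45) in papain cells. LCs lay between them, at -0.67 (-0.92 to -0.42) against cDC2s in naive and -0.18 (-0.32 to -0.04) in papain cells. Of the 191 Ikzf1 UMIs of naive cDC1s, 73 were in the 78 cells with a T cell transcript. Without those cells the naive cDC1 level was 14.7 CPM (12.2 to 17.6), the log2 ratio to naive cDC2s was -1.53, and that of papain over naive cDC1s was 0.14 in place of -0.25.

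**Figure D2:**
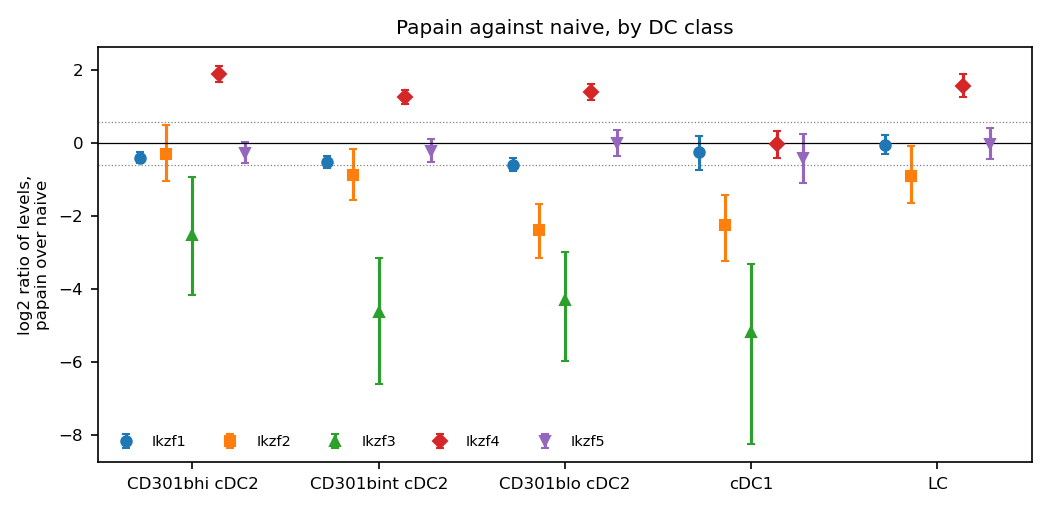
Log2 ratio of papain over naive levels (y axis) for each of the 5 Ikaros family genes in the 5 DC classes (x axis); bars are exact 95% conditional binomial intervals of counting error, dotted lines mark a 1.5-fold difference in either direction. Ikzf4 lies at 1.26 to 1.90 in 4 classes and at -0.02 in cDC1s, and Ikzf1 and Ikzf5 lie between -0.59 and 0. Most values of Ikzf2 and Ikzf3 rest on few UMIs, and Ikzf3 in LCs, with 2 UMIs in each library, is not drawn.

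Ikzf2 and Ikzf3 were rare in DCs apart from naive cDC1s. Ikzf2, whose product Helios is typical of regulatory T cells, was 18.5 CPM (15.9 to 21.5) in naive cDC1s, 1.75 to 6.61 CPM in the other naive classes and 1.27 to 3.91 CPM in the papain classes. Ikzf3, which encodes Aiolos, was 23.5 CPM (20.51 to 26.8) in naive cDC1s, 0.376 to 5.42 CPM in the other naive classes and 0.109 to 0.651 CPM in the papain classes. Against all cDC2s of the naive library, the cDC1 log2 ratio was 2.37 (2.02 to 2.73) for Ikzf2 and 2.95 (2.60 to 3.32) for Ikzf3.

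These molecules were concentrated in cells that also held T cell transcripts. The 78 such cells among the 578 naive cDC1s carried 218 of the 223 Ikzf3 UMIs and 126 of the 176 Ikzf2 UMIs. In them Ikzf3 was 148 CPM (129 to 169) and Ikzf2 85.4 CPM (71.1 to 102). In the other 500 naive cDC1s Ikzf3 was 0.624 CPM (0.202 to 1.46), from 5 UMIs in 3 cells. On these few UMIs the log2 ratio to cDC2s without T cell transcripts was -0.93, the opposite direction to that over all cells. No interval was computed for that ratio, so its direction is not secure. Ikzf2 in those 500 cells was 6.24 CPM (4.63 to 8.22), and its ratio to such cDC2s was 1.13 in place of 2.37. The part of T cells, or of RNA from them, in the values over all cells was not tested further, and no doublet caller was run.

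Outside cDC1s the counts of both genes were small. In the papain CD301bhi cDC2s 28 of the 72 Ikzf2 UMIs came from 1 cell, and Ikzf3 rested on 7 UMIs in 2893 cells. Over all papain cells with a class there were 20 Ikzf3 UMIs, 13 of them in the 322 cells with a T cell transcript, whereas in naive cells 278 of 319 were in 182 such cells. Papain cDC1s without a T cell transcript held no Ikzf3 UMI in 224 cells. By the limit of 3 counts used here for a count of 0, this allows a share of up to 1.34% of those cells with a UMI.

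**Figure D3:**
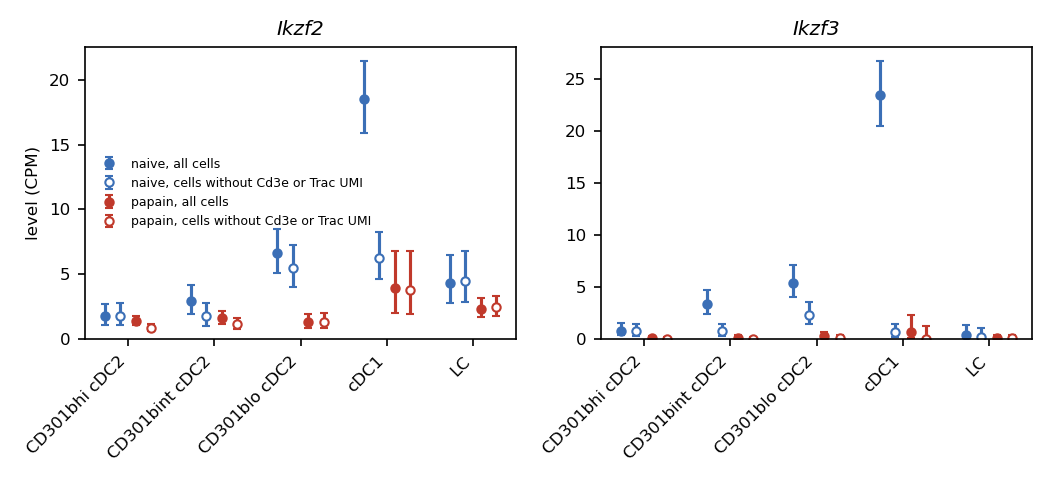
Levels of Ikzf2 and Ikzf3 in CPM (y axes) in the 5 DC classes (x axes), over all cells of the class (filled) and over the cells without a Cd3e or Trac UMI (open), in the naive (blue) and papain (red) library; bars are exact 95% Poisson intervals. In naive cDC1s Ikzf3 goes from 23.5 CPM over all cells to 0.624 CPM without the cells with a T cell transcript, and Ikzf2 from 18.5 to 6.24 CPM.

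Ikzf5, which encodes Pegasus, the member least like the others, was the most even of the family. Its level was 10.7 to 12.04 CPM in the 5 naive and 8.14 to 11.9 CPM in the 5 papain classes. The log2 ratios of papain over naive ran from -0.40 in cDC1s to 0.00 in CD301blo cDC2s, and the interval of each included 0, for instance -0.54 to 0.03 around -0.26 in CD301bhi cDC2s. Within the papain library, LCs were above cDC2s by 0.24 (0.02 to 0.45) and CD301bhi below CD301blo cDC2s by -0.25 (-0.49 to -0.00) on the log2 scale, both small.

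Counted over the family at 1.5-fold in either direction, among members that reached 10 CPM in either group, the papain against naive contrast of CD301bhi cDC2s called 1 of 3 members (Ikzf4), against 18.6% of all genes. The rule used that contrast and nothing is read from the count. It was 1 of 3 in CD301bint cDC2s (21.3% of all genes), 2 of 3 in CD301blo cDC2s (Ikzf4 higher, Ikzf1 lower; 25.2%), 2 of 5 in cDC1s (Ikzf2 and Ikzf3 lower; 22.9%) and 1 of 3 in LCs (23.6%). The members that passed the filter in cDC1s through Ikzf2 and Ikzf3 passed only because of the naive group. Without the cells with a T cell transcript neither Ikzf2 nor Ikzf3 reached 10 CPM there, and the count was 0. Between classes of the naive library, 3 of 5 members passed for cDC1s against cDC2s (29.1% of all genes), 1 of 3 for LCs against cDC2s (Ikzf1 lower; 25.3%) and 0 of 3 for CD301bhi against CD301blo cDC2s (14.5%). In the papain library the counts were 2 of 3 (Ikzf1 and Ikzf4 lower; 26.4%), 0 of 3 (12.8%) and 0 of 3 (8.27%). With 3 to 5 members counted, none of these shares can be set apart from that of all genes.

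Because CD301b is read by an antibody, the members could also be followed along it within cDC2s, in 5 bins of equal size. In papain cDC2s Ikzf4 was 51.4 CPM (47.8 to 55.2) in the bin with the least CD301b and 65.4, 61.2, 61.0 and 62.5 CPM in the next 4, so it was lower in the first bin only. In naive cDC2s it was 17.2, 28.9, 23.5, 20.4 and 15.2 CPM, highest in the second bin and lowest in the last. Ikzf1 was 54.9 CPM (49.1 to 61.3) in the first and 38.2 CPM (33.6 to 43.2) in the last naive bin, and 32.3 and 29.2 CPM in the corresponding papain bins. The CD301bhi over CD301blo log2 ratio of Ikzf4 was -0.34 (-0.63 to -0.04) in naive and 0.16 (0.06 to 0.27) in papain cDC2s, a change of sign between libraries. The CD301bhi cells of both libraries made the contrast that chose the family, so this change is no separate evidence.

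**Figure D4:**
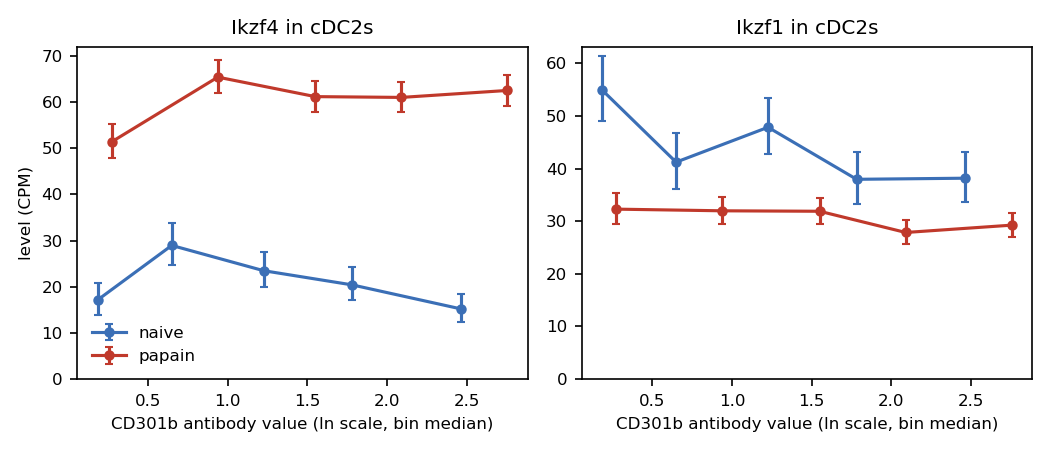
Levels of Ikzf4 (left) and Ikzf1 (right) in CPM (y axes, from 0) against the median CD301b antibody value (x axes, natural log scale) in 5 equal-sized bins of the naive (blue) and papain (red) cDC2s; bars are exact 95% Poisson intervals. Each papain bin of Ikzf4 (51.4 to 65.4 CPM) lies above each naive bin (15.2 to 28.9 CPM), with no steady rise along CD301b.

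The authors also divided the cDC2s by mRNA, into 7 naive and 9 papain clusters, numbered separately in each library. These clusters were made from the same mRNA values, so the levels in them are a description. Ikzf4 varied more between clusters than between CD301b classes. In papain cDC2s it reached 112 CPM (108 to 117) in cluster 2, where 64.5% of 1294 cells had a UMI, and was 24.7 CPM (21.0 to 28.9) in cluster 4 and 17.0 CPM (12.5 to 22.7) in cluster 9. In naive cDC2s it ran from 29.6 CPM (25.4 to 34.2) in cluster 2 down to 1.43 CPM (0.576 to 2.95) in cluster 5, from 7 UMIs in 246 cells. The papain clusters 4 and 9 thus lay within the range of the naive clusters.

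Ikzf1 took another order. In naive cDC2s it was 28.1 to 37.7 CPM in clusters 1 to 4 and 73.7 CPM (66.2 to 81.7) in cluster 5, the cluster almost without Ikzf4. It was 63.6 CPM (39.4 to 97.3) in cluster 6, from 21 UMIs, and 120.1 CPM (98.6 to 145) in cluster 7. Of the 50 cells of cluster 7, 56.0% had a T cell transcript, and Ikzf2 (56.2 CPM) and Ikzf3 (65.0 CPM) were also high there. In cluster 5 such cells were 2.03%, while 19.5% had a UMI of the B cell genes Cd79a, Cd79b or Ms4a1, against 3.24% to 6.96% in clusters 1 to 4. The latter share was 0% in cluster 6 and highest in cluster 7, at 26%. There these cells held 20 of the 109 Ikzf1 and 24 of the 59 Ikzf3 UMIs. Without cells with a B cell UMI the Ikzf1 level of cluster 7 was 133 CPM (107 to 164). That of cluster 5 was then 70.5 CPM (62.5 to 79.3), and its Ikzf4 level 1.52 CPM (0.559 to 3.31). In papain cDC2s Ikzf1 was 23.1 to 37.8 CPM in clusters 1 to 7, 59.7 CPM (50.2 to 70.5) in cluster 8 and 54.8 CPM (46.3 to 64.3) in cluster 9. High Ikzf1 went with low Ikzf4 in naive cluster 5 and papain cluster 9. It did so too in naive clusters 6 and 7, with Ikzf4 at 3.03 CPM from 1 UMI and 9.91 CPM from 9 UMIs. Papain cluster 8 had both, with Ikzf4 at 73.9 CPM (63.3 to 85.8). That cluster also had the lowest median depth of the papain clusters, 7249 UMIs, and the highest Ikzf5, 17.6 CPM.

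**Figure D5:**
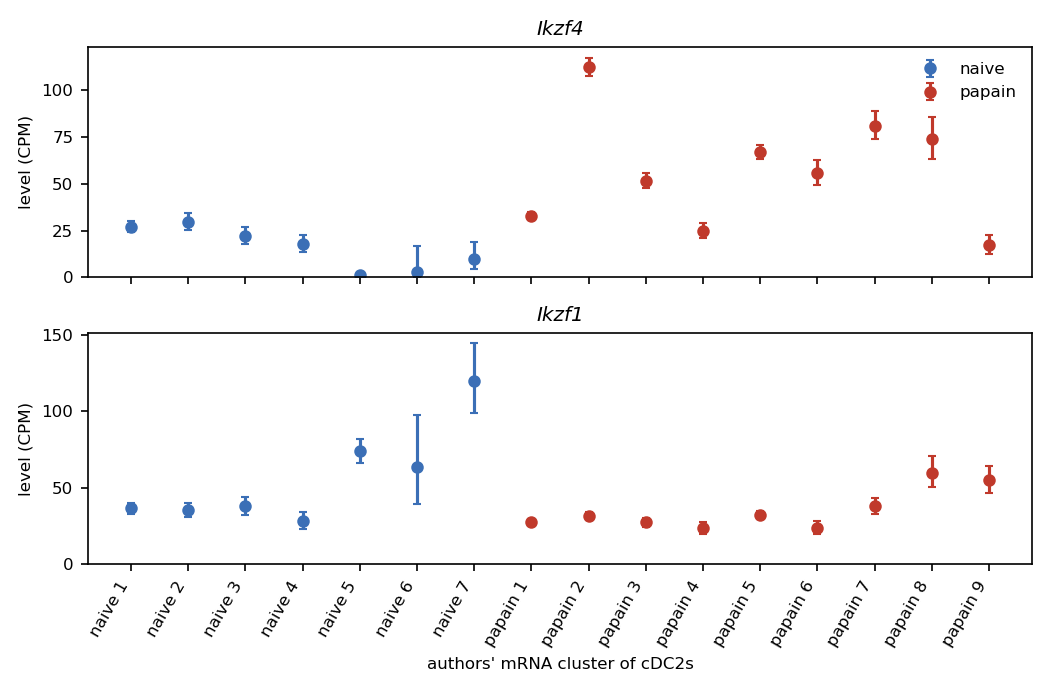
Levels of Ikzf4 (top) and Ikzf1 (bottom) in CPM (y axes, from 0) in the authors' mRNA clusters of cDC2s (x axis), 7 naive (blue) and 9 papain (red), numbered separately in each; bars are exact 95% Poisson intervals. Ikzf4 spans 17.0 to 112 CPM over the papain clusters, and naive cluster 5 has the lowest Ikzf4 (1.43 CPM) with 73.7 CPM of Ikzf1.

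Class and cluster were not independent. Naive cluster 5 held 21.7% of CD301blo but 5.52% of CD301bhi cDC2s, and with it came 201 of the 455 Ikzf1 UMIs of naive CD301blo cDC2s. Ikzf4 was also compared between CD301bhi and CD301blo cells of the same cluster. In the naive library CD301bhi cells had the lower level in 5 of the 5 clusters with at least 20 cells of both classes, with an interval of the log2 ratio below 0 in 2 of them. Cluster 5 had 0 UMIs in CD301bhi and 6 in CD301blo cells, so no ratio was defined. Cluster 4 had only 4 UMIs in its 32 CD301bhi cells. In cluster 1 the levels were 16.4 and 47.2 CPM, a log2 ratio of -1.53 (-2.002 to -1.04). In the papain library it was so in 6 of 9 clusters, with an interval below 0 in 4 and above 0 in none. In papain cluster 2 the levels were 108 CPM in CD301bhi and 163 CPM in CD301blo cells (-0.59, -0.83 to -0.34). Over all papain cDC2s the order was the reverse, and 30.0% of CD301bhi but 4.83% of CD301blo cells lay in cluster 2, and 1.73% and 35.9% in cluster 4. Ikzf1 was lower in CD301bhi than in CD301blo cells in 3 of 5 naive and 7 of 9 papain clusters, with 1 of the 14 intervals clear of 0.

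Reported partners and regulators of the family, with the cereblon ligase known from human cells, were read from fixed lists. Papain over naive log2 ratios in CD301bhi cDC2s were used, a contrast in which 18.6% of all genes passed 1.5-fold. Whether any of these genes acts on a member in mouse DCs was not tested. All 13 NuRD genes had at least 10 CPM and none passed 1.5-fold. Their median was 0.02, beside 0.09 over all genes, and they ran from Chd3 (-0.56) and Mta3 (-0.16) to Hdac2 (0.25) and Mbd2 (0.53), which encodes the subunit that binds methylated DNA. Of 4 other corepressors 1 was higher, Sin3b at 101 and 177 CPM (0.80, 0.71 to 0.89), with Ctbp2 at 0.39, Ctbp1 at 0.04 and Sin3a at -0.13. Of the 5 genes of the cereblon ligase 4 reached 10 CPM and 1 was higher, Rbx1, its RING subunit, at 0.65 (0.58 to 0.73). Crbn, which encodes cereblon, was at 0.25, Cul4a at 0.24 and Ddb1 at -0.06. None of the 3 casein kinase 2 genes passed, with Csnk2b at 0.51, Csnk2a2 at 0.21 and Csnk2a1 at 0.02.

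A list of 11 DC transcription factors served for comparison, and 4 of them were lower in papain CD301bhi cDC2s by more than 1.5-fold, as were 606 of the 7226 genes counted. Klf4, which cDC2 subsets that promote Th2 responses depend on, was 181 CPM in naive and 106 CPM in papain cells (-0.77, -0.84 to -0.70). Nfil3 was at -0.76, and Runx3 and Zeb2 at -0.74 and -0.60. The highest were Irf4, central to cDC2 migration, at 0.55 (0.42 to 0.68) and Tcf4 at 0.50. None of the 11 was higher by 1.5-fold. In cDC1s, where Ikzf4 did not differ beyond counting error, 2 of the 11 were higher and 1 lower by 1.5-fold, beside 22.9% of all genes in either direction.

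The genes whose levels followed each member most closely were named by Pearson's r of log2(CPM + 1) over the 10 class and library groups, among 8442 genes with at least 10 CPM in 1 group. The groups share libraries, so r is a description. For Ikzf4 they were Dync1i2 (r = 0.98), Ubl5 (0.97) and Ndufb8 (0.97), and for Ikzf1 Ehd4 (0.99), Rps4x-ps (0.98) and Lta4h (0.98). Ikzf3 went with Cxcr6 (0.98) and Colq (0.98), and Ikzf2 with Ablim1 (0.96), Fam102a (0.95) and Skap1 (0.95). Skap1 encodes a signalling adaptor of T cells. Ikzf5 went with Prkdc (0.93), 2410002F23Rik (0.92) and 9930021J03Rik (0.92). Between members r was 0.89 for Ikzf2 with Ikzf3 and -0.12 for Ikzf1 with Ikzf4. All r values are over all cells of a class. In naive cDC1s 71.6% of the Ikzf2 and 97.8% of the Ikzf3 UMIs were in cells with a T cell transcript. No r was computed without such cells, so that of Ikzf2 with Ikzf3 does not show that DCs express both. Dync1i2 ran only from 109 to 135 CPM over the 10 groups, so a high r does not mean a difference as large as that of Ikzf4.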

How the data were processed

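The authors processed the reads with Cell Ranger 3.0.1 and Partek against mm10, per the labels, and deposited log2 values of CPM plus 1 for each cell and gene. Dividing by the value of 1 UMI gave whole UMIs, to within 0.02, for 100% of the values of at most 50 UMIs. The authors also gave the number of expressed genes, in counts, which equalled the genes above 0 in each of 3471 naive and 7596 papain cells. Antibody values were deposited on a natural log (ln) scale, and only CD301b was used, for the bins. Depth was 3637 to 57378 UMIs per naive and 2682 to 57150 per papain cell, which limits precision as the intervals show.

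Classes and mRNA clusters are those the authors deposited. UMIs were summed over cells and scaled to CPM of all their UMIs (Python 3.11.15, NumPy 2.4.6, SciPy 1.17.1, pandas 2.3.3). The interval code was tested on simulated data. Doublets were not called. The members, gene lists and rules were chosen with earlier results of these data known. The rule for named genes took the 5 members, the 2 highest and 2 lowest of each list with at least 10 CPM, and the 3 genes most like each member, of which 1 is not reported here. Members of the shorter lists and Runx3 and Zeb2 outside that rule were named after their values were seen, as were the clusters. Alternatives concerned the cells, their weight, depth, pseudocounts, scaling, filters and fold. Lists of other cell types were read as summed CPM: regulatory T cell markers were at most 3.39 CPM in a class, the B cell genes Cd79a, Cd79b and Ms4a1 1.20 to 19.2, monocyte and macrophage markers 2.93 to 51.9, plasmacytoid DC markers 94.3 to 250 and natural killer and innate lymphoid markers 111 to 167 CPM. In every class the highest gene of its list made up most of the plasmacytoid DC sum, 249.6 of 249.6 CPM in papain cDC1s. The same held for the natural killer and innate lymphoid sum, 109.8 of 110.5 CPM in papain CD301bhi cDC2s. These sums are therefore not levels shared by the markers of a list.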

Additional observations from a re-analysis of the deposited data

Results flagged for a closer look

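Ikzf4 had opposite directions in the 2 libraries in a pair of contrasts, each with an interval clear of 0. For cDC1s over cDC2s the log2 ratio was 0.30 in naive and -1.26 in papain cells, and for CD301bhi over CD301blo cDC2s it was -0.34 in naive and 0.16 in papain cells. Both contrasts include CD301bhi cDC2s, whose papain over naive ratio chose the family, so neither change of direction is evidence apart from that choice. Within clusters CD301bhi cells had the lower Ikzf4 level in 5 of 5 naive and 6 of 9 papain clusters. With 1 library each, the differences between libraries were not tested.

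The cells without a class, which entered no comparison, held members above the intervals of all 5 classes of the same library. Ikzf1 was 70.7 CPM (64.7 to 77.0) in 429 naive and 108 CPM (96.0 to 121) in 290 papain cells without a class. Ikzf2 was 34.1 CPM (30.0 to 38.6) and 54.2 CPM (45.8 to 63.8) in these cells, and Ikzf3 was 16.3 CPM (11.9 to 21.9) in the papain ones. Cells with a T cell transcript were 237 of the 429 and 241 of the 290.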

How the results depend on the processing

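No paired analysis was possible because there is 1 library per condition and the labels give no replicate numbers. The Ikzf4 papain over naive ratios kept their direction under every alternative in CD301bhi (1.44 to 2.01), CD301bint (1.00 to 1.40) and CD301blo cDC2s (1.08 to 1.46) and in LCs (1.18 to 1.72), and lay between -0.17 and 0.03 in cDC1s. The lowest value in each of those 4 classes, 1.44, 1.00, 1.08 and 1.18, came with 10 CPM added to both levels, which shrinks ratios by construction. The 1 reversal of a ratio clear of 0 was Ikzf3 in naive cDC1s over cDC2s, to a value without an interval that rests on 5 cDC1 UMIs. It was -0.93 without cells with a Cd3e or Trac UMI. Without those cells the members past 1.5-fold went from 2 to 0 in papain against naive cDC1s and from 3 to 1 in naive cDC1s against cDC2s, as Ikzf2 and Ikzf3 fell under 10 CPM; the Ikzf2 ratios were then -0.72 and 1.13. With the mean over single cells the papain against naive cDC1 count was 4. In papain against naive CD301blo cDC2s the count of 2 rests on Ikzf1, whose ratio of -0.59 lies at the threshold. It was 1 with the mean over cells, after thinning, at 2-fold, without the deepest 5% of cells, without cells with a T cell transcript, and, as alternatives chosen after seeing the data, without cells with a Cd79a, Cd79b or Ms4a1 UMI and without the cell with the most UMIs of the member. With no filter on low levels it was 4, and the counts were 2 in CD301bhi cDC2s, 3 in CD301bint cDC2s and 3 in LCs. That filter also gave 2 for naive LCs over cDC2s, 2 for naive CD301bhi over CD301blo cDC2s, 4 for papain cDC1s over cDC2s, 1 for papain LCs over cDC2s and 1 for papain CD301bhi over CD301blo cDC2s. At 2-fold the count was 0 for naive LCs over cDC2s and 1 for papain cDC1s over cDC2s. Of the 816 alternative values, 669 stayed within their interval or, for counts of members, within 1.5-fold of the count. A further 4 ratios of Ikzf3 in papain cDC1s were undefined with no UMI left. Ikzf3 in LCs, with 2 UMIs in each library, was left out. On the CPM scale 0 of the 3 genes most like Ikzf4 and 2 of those most like Ikzf1 were found again. Small counts limit Ikzf3 in papain cells, with 20 UMIs over all classes.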
